A study of Neurospora crassa with 86 samples.

Results

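Wild type mycelium of the filamentous fungus Neurospora crassa (strain FGSC 2489) given glutamine as its nitrogen source was compared with the same strain given glutamate. The comparison takes every library that the labels place in either medium, 3 libraries for each, or 6 of the 86 libraries of the series. The series profiles mRNA of wild type and regulator mutants after a shift to different nitrogen or carbon sources, and 47 of its libraries are wild type. Conidia were grown for 24 h at 25 °C in constant light with shaking in a minimal medium with 2% sucrose. The mycelium was then washed free of nitrogen and moved for 4 h to the same medium with 2% sucrose and either 50 mM glutamine or 50 mM glutamate. Both groups therefore share the strain, the sugar, the wash, the light and the time, and neither carries a mutation named in the labels. The molarity was also the same, but glutamine carries an amide nitrogen that glutamate lacks. The amount of nitrogen supplied thus differed together with its form, and the effects of amount and form cannot be told apart. Whether the glutamate was supplied as an acid or a salt, and the pH reached by the cultures, was not given in the sources used here. The labels call the libraries of a medium biological replicates and say no more about how the cultures were separated. The study's reference, called full medium here, is the wild type moved to the complete minimal medium with 25 mM ammonium nitrate, with 5 libraries, and it serves below only to place the levels.

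Glutamine and glutamate are the products of neighbouring steps of ammonium assimilation. NADP-dependent glutamate dehydrogenase joins ammonium to 2-oxoglutarate to make glutamate, glutamine synthetase adds ammonium to glutamate to make glutamine, and glutamate synthase moves the amide group of glutamine back onto 2-oxoglutarate. In filamentous fungi glutamine is known as a signal of nitrogen sufficiency, under which the GATA activator NIT2, held back by the regulator NMR, leaves genes for the use of secondary nitrogen sources at low levels. Both amino acids are counted among the nitrogen sources that the fungus uses readily.

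The values are FPKM (fragments per kilobase of transcript, scaled to the size of the library) from the authors' joint table, and differences are on the log2 scale of FPKM + 1, glutamine minus glutamate. Values of single libraries are given in the order of the joint table's numbers 1, 2 and 3. These are used as names only and are not taken to pair libraries between media. A gene is called where the adjusted p of the limma fit is under 0.05 and the difference is at least 1 log2. Estimated depth was 13500000 to 17910000 fragments per library in glutamine and 12930000 to 17910000 in glutamate. The glutamine libraries were less alike than the glutamate libraries. The root mean square log2 difference between a pair of libraries was 0.175 to 0.336 within glutamine and 0.147 to 0.156 within glutamate. Between the media it was 0.560 to 0.661. These distances were taken over the 5280 genes tested with a mean of at least 10 FPKM over the 86 libraries. Glutamine library 1 was the one farthest from the other glutamine libraries, and leaving it out gave 374 called genes, 326 of them shared with the full comparison. Transcripts of the mitochondrial genome took 0.00888 to 0.0112% of all FPKM in glutamine and 0.0164 to 0.0206% in glutamate, and the part of this in the results was not tested.

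Of 8558 genes tested, 387 were called, which is 4.52%. The 120 genes called higher in glutamine are 1.4% of those tested, and the 267 called lower are 3.12%. The largest differences lay on the lower side: 57 called genes were lower by at least 2 log2 and 6 were higher by that much. The 3 glutamine libraries did not overlap the 3 glutamate libraries in 5012 of all genes tested (58.6%), and in 385 of the 387 called genes, where the call itself favours it. Smaller differences leaned the other way. With adjusted p under 0.05 at any size, 2752 genes passed (32.2%), 1632 of them higher (19.1%) and 1120 lower in glutamine (13.1%). These counts depend on the fit: 1084 were higher and 829 lower without glutamine library 1, and 2340 were higher and 1660 lower when the 6 libraries were fitted alone. Counts of list members past adjusted p below are from the fit over all 86 libraries unless stated. They are to be read beside the shares of all genes in that fit: 32.2% in either direction, 19.1% higher and 13.1% lower. Counts of called list members are likewise to be read beside 4.52% in either direction, 1.4% higher and 3.12% lower. With a pseudocount of 0.1 FPKM in place of 1, 572 genes were called, 402 of them lower. The median over all genes tested was 0.04 log2, and 54.7% of them were above 0.

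**Figure D1:**
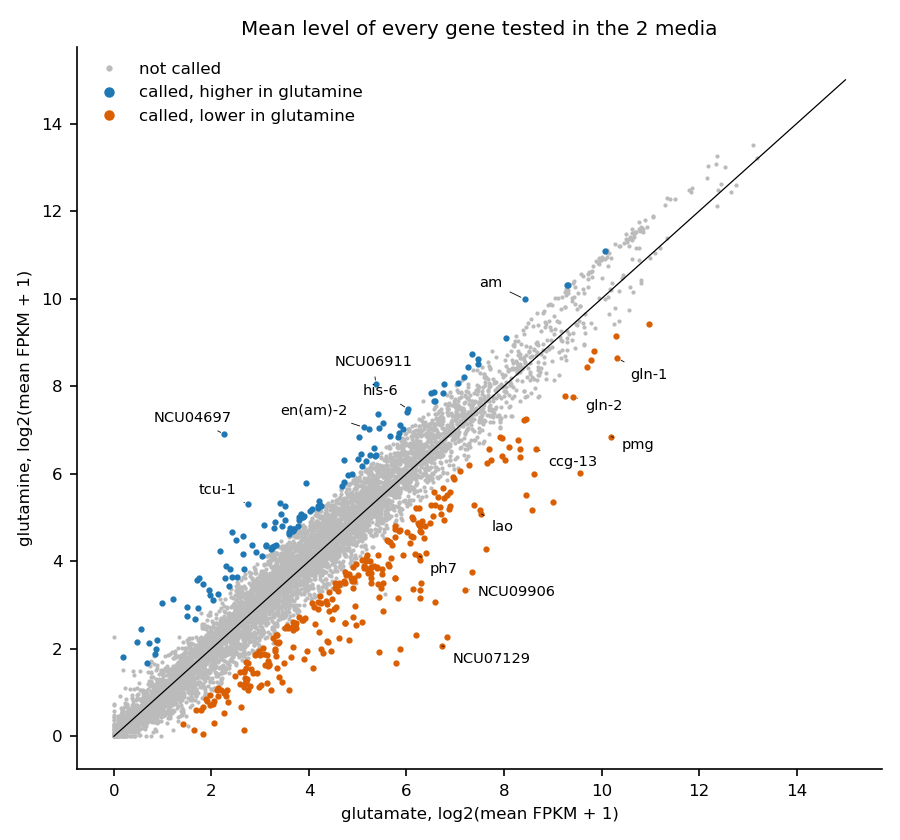
Mean level of each gene tested in glutamate (x axis) and in glutamine (y axis), both as log2(mean FPKM + 1), with the line of equal levels. Points above the line in blue are the 120 genes called higher in glutamine and points below it in orange the 267 called lower; grey points were not called.

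All 5 ammonium assimilation genes on the list were called, 2 higher and 3 lower in glutamine, where 4.52% of all genes were called. The genes that make glutamate from 2-oxoglutarate were higher, and the genes that make glutamine, with the NAD-dependent dehydrogenase, were lower. Expression of am (NCU01195, supercontig 12.5, 3200862 to 3203095), which encodes NADP-dependent glutamate dehydrogenase, was 1245, 724 and 1081 FPKM in glutamine and 368, 331 and 327 FPKM in glutamate. The glutamine libraries were the more spread, yet the lowest of them was above every glutamate library, and the gene rose by 1.53 ± 0.28 log2 (SE, n = 3 per group, adjusted p = 1.8e-05). The glutamate synthase gene en(am)-2 (NCU01744, supercontig 12.2, 2567182 to 2576313) stood at 147, 114 and 137 FPKM in glutamine and at 36.2, 33.5 and 31.8 FPKM in glutamate. It rose by 1.93 ± 0.24 log2 (adjusted p = 3.2e-09), and its mean FPKM was 3.92-fold higher in glutamine.

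Both glutamine synthetase genes went down together. The level of gln-1 (NCU06724, supercontig 12.5, 4393869 to 4397472) was 431, 363 and 399 FPKM in glutamine against 1305, 1267 and 1268 FPKM in glutamate, a difference of -1.69 ± 0.19 log2 (adjusted p = 1.8e-10). The level of gln-2 (NCU04856, supercontig 12.4, 485244 to 488059) was 171, 260 and 211 FPKM in glutamine against 661, 654 and 734 FPKM in glutamate, a difference of -1.69 ± 0.22 log2 (adjusted p = 1.4e-08). In mean FPKM both were close to the same ratio, 3.22-fold lower for gln-1 and 3.19-fold lower for gln-2. The NAD-dependent glutamate dehydrogenase gene gdh-1 (NCU00461), whose enzyme releases ammonium from glutamate, was expressed far below am. It measured 12.1, 10.9 and 12.5 FPKM in glutamine and 27.9, 25.2 and 25.6 FPKM in glutamate, so that it fell by 1.08 on the log2 scale (SE 0.20, adjusted p = 3.1e-05).

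**Figure D2:**
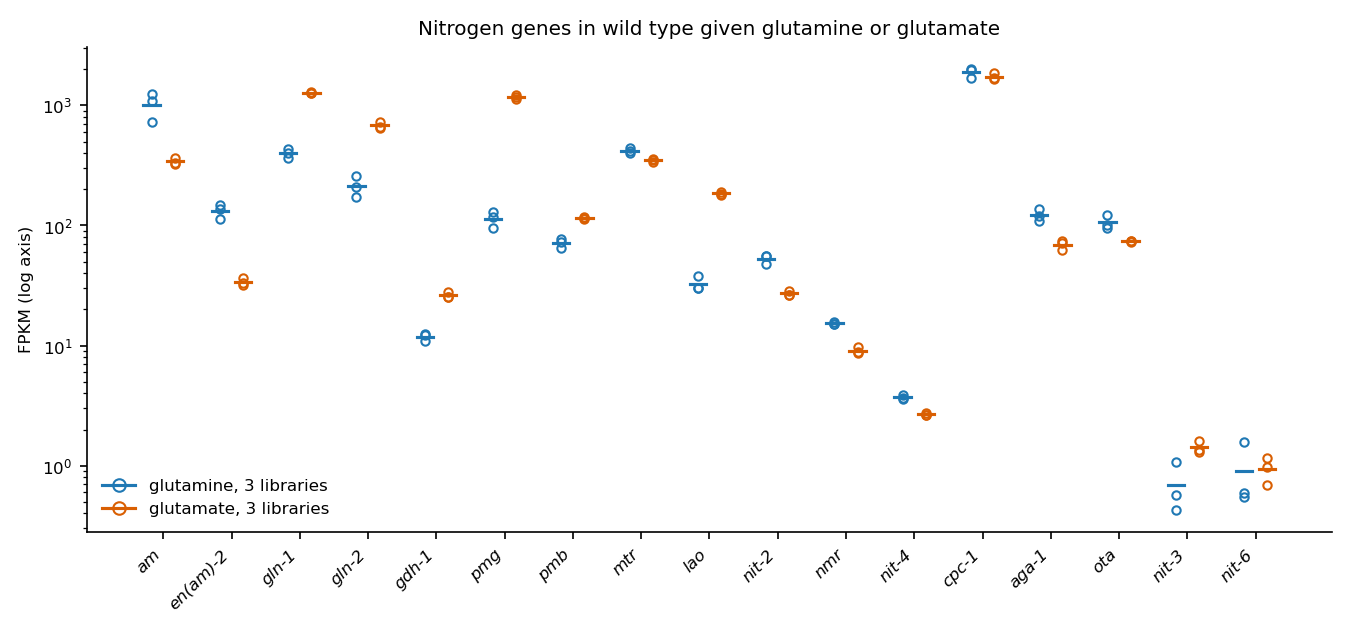
FPKM on a log axis of 17 genes of nitrogen use in each of the 3 glutamine (blue) and 3 glutamate (orange) libraries, with the mean as a bar. The am and en(am)-2 points lie higher in glutamine and the gln-1, gln-2, gdh-1, pmg and lao points lower, while the mtr, cpc-1, nit-3 and nit-6 differences did not pass the fit over all 86 libraries.

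Among amino acid permeases the difference was concentrated in pmg. This gene (NCU03509, supercontig 12.2, 432025 to 434576) encodes the general amino acid permease and measured 129, 94.6 and 119 FPKM in glutamine and 1139, 1169 and 1212 FPKM in glutamate. It fell by 3.36 on the log2 scale (SE 0.19, adjusted p = 2.4e-22), a mean 10.3-fold lower, and it had the largest difference of the genes named here for their part in nitrogen use. The basic amino acid permease gene pmb (NCU05168) was lower with a smaller difference of -0.68 ± 0.22 log2 (adjusted p = 0.013), at a mean of 72.0 ± 6.65 FPKM in glutamine and 115 ± 1.70 in glutamate (SD, n = 3). The neutral amino acid permease gene mtr (NCU06619) differed by 0.26 ± 0.43 log2 (adjusted p = 0.69), at 438, 402 and 421 FPKM in glutamine and 353, 339 and 357 FPKM in glutamate. The groups did not overlap, and in the fit of the 6 libraries alone mtr was higher by the same 0.26 log2 with SE 0.06 and adjusted p = 0.010. Of the 4 permease genes tested, 1 was called, beside 4.52% of all genes. The gene lao (NCU01066, supercontig 12.5, 2812706 to 2815486), which encodes L-amino acid oxidase, an enzyme that frees ammonium from many amino acids, measured 37.8, 30.2 and 30.4 FPKM in glutamine and 190, 180 and 184 FPKM in glutamate. It fell by 2.47 on the log2 scale (SE 0.45, adjusted p = 2.4e-05).

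None of the 7 nitrogen regulator genes tested was called, where 4.52% of all genes were. Adjusted p under 0.05 was passed by 3 of the 7, all higher, beside 32.2% of all genes in either direction. The list's median was 0.35 log2, beside 0.04 over all genes. The activator gene nit-2 (NCU09068) measured 55.5, 47.7 and 56.0 FPKM in glutamine and 28.5, 26.6 and 26.4 FPKM in glutamate. The groups were well apart, but the difference of 0.94 ± 0.12 log2 (adjusted p = 7.3e-09) missed the size for a call, which it reached without glutamine library 2 (1.01 log2). The gene of its negative regulator, nmr (NCU04158), was also higher in glutamine, by 0.70 ± 0.19 log2 (adjusted p = 0.003), at 15.3 ± 0.346 FPKM against 9.06 ± 0.531. The nitrate pathway activator gene nit-4 (NCU08294) differed by 0.35 ± 0.13 log2 (adjusted p = 0.032). For cpc-1 (NCU04050), the activator of general amino acid control, the groups overlapped, at 1886 ± 168 and 1740 ± 104 FPKM (0.11 ± 0.21 log2, adjusted p = 0.73).

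The nitrate assimilation genes were not called in either direction. Nitrate reductase nit-3 (NCU05298) was at 1.06, 0.425 and 0.565 FPKM in glutamine and at 1.60, 1.30 and 1.36 in glutamate, and nitrite reductase nit-6 (NCU04720) at means of 0.905 ± 0.579 and 0.937 ± 0.235 FPKM. Both were low in either amino acid, against means of 48.8 and 317 FPKM in full medium. The nit-6 groups overlapped (-0.06 ± 0.97 log2, adjusted p = 0.98). The nit-3 groups did not overlap, with every glutamine library below every glutamate library (-0.54 ± 0.85 log2, adjusted p = 0.69). In a fit of the 6 libraries alone, in which the other media do not enter the spread, nit-3 was lower at the same -0.54 log2 with SE 0.14 and adjusted p = 0.023. The nitrate transporter gene nit-10, whose entry is merged with NCU11348 in the table so that the reads of the pair cannot be told apart, was at 109 ± 6.22 and 122 ± 4.49 FPKM (-0.16 ± 0.53 log2, adjusted p = 0.86). Its groups did not overlap either, and the fit of the 6 libraries alone gave -0.16 log2 with SE 0.06 and adjusted p = 0.068.

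The arginine breakdown genes aga-1 (NCU02333, arginase) and ota (NCU00194, ornithine aminotransferase) were higher in glutamine without reaching the size for a call. The difference was 0.81 ± 0.21 log2 for aga-1 (adjusted p = 0.0019) and 0.51 ± 0.13 log2 for ota (adjusted p = 0.0027). In the purine and urea breakdown list none of 3 genes was called, and aln-1 was lower at -0.76 log2 with an adjusted p under 0.05. Both autophagy genes, apg-1 at -0.64 log2 and atg-8 at -0.52 log2, were lower with adjusted p under 0.05 and not called.

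Genes of amino acid synthesis were mostly higher in glutamine, by less than the size for a call. Over the 8 synthesis lists together, 57 genes were tested, 56 had a positive difference and the median was 0.75 log2, beside 0.04 over all genes. Of these 57, 38 passed adjusted p under 0.05 and all 38 were higher, beside 19.1% of all genes past it and higher. Of the same 57, 6 passed the size for a call, none lower, beside 1.4% of all genes called higher. Without glutamine library 1, 10 were called and 28 passed adjusted p. The fit of the 6 libraries alone gave 6 called and 52 past adjusted p, all higher. The median stayed at 0.73 log2 under median-ratio scaling of the joint table. Per-sample values rescaled in the same way also gave 0.73 log2, over 55 genes.

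All 10 genes of aromatic amino acid synthesis passed adjusted p under 0.05 and all were higher, between aro-1 at 0.75 and trp-3 at 1.02 log2, with a median of 0.90. In the comparison of all 6 libraries only trp-3 (NCU08409, tryptophan synthase) was called, at 60.04, 94.5 and 97.0 FPKM in glutamine and 36.7, 41.3 and 41.6 FPKM in glutamate. Its call was lost without glutamine library 2 (0.92 log2), without glutamine library 3 (0.90) or without glutamate library 1 (0.97). Without glutamine library 1, 4 of the 10 aromatic genes were called. In branched-chain synthesis 7 of 9 genes passed adjusted p under 0.05, all higher, and 2 were called. They are ilv-4 (NCU01666), at 200 ± 6.59 FPKM against 94.5 ± 5.67 and 1.07 ± 0.28 log2 (adjusted p = 0.0023), and leu-2 (NCU04385, isopropylmalate isomerase), at 94.8 ± 13.96 against 39.1 ± 1.48 FPKM and 1.25 ± 0.44 log2 (adjusted p = 0.025). The leu-2 call was lost in 5 of the 6 fits that left a library out, with adjusted p from 0.053 to 0.089, and held without glutamine library 2. The exception to the direction was ilv-5 at -0.18 log2, which did not pass.

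Histidine synthesis gave the largest single difference of the synthesis lists. The gene his-6 (NCU07156) measured 128, 195 and 207 FPKM in glutamine and 59.7, 67.5 and 66.4 FPKM in glutamate, and it rose by 1.41 ± 0.38 log2 (adjusted p = 0.0034). Glutamine library 1 was the lowest of its group for both his-6 and trp-3, and was still above every glutamate library. Of the 4 histidine genes 3 passed adjusted p under 0.05, all higher, with a median of 0.95 log2. Of the 13 genes for threonine, methionine and cysteine all were positive, 9 passed and 1 was called. That gene is met-7 (NCU02430, cystathionine gamma-synthase), at 84.7 ± 5.06 against 36.9 ± 1.71 FPKM and 1.18 ± 0.37 log2 (adjusted p = 0.012).

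In arginine synthesis the 12 genes tested were all positive with a median of 0.59 log2, and 4 passed adjusted p under 0.05. The only one called was pyr-3 (NCU08287), at 202 ± 29.4 against 93.2 ± 8.10 FPKM and 1.10 ± 0.31 log2 (adjusted p = 0.0048). It encodes a protein with carbamoyl phosphate synthase and aspartate transcarbamylase activities of the pyrimidine pathway, and stands on the pyrimidine list as well. Its call was lost without glutamine library 1, just under the size at a rounded 1.00 log2 (adjusted p = 0.030). Lysine synthesis had 2 of 4 genes past adjusted p, proline synthesis 2 of 3, and the serine and one-carbon list 1 of 2, all higher and none called. The polyamine list had 2 of 3 genes past adjusted p, both higher. Of 7 purine and pyrimidine genes, 2 passed and both were higher, beside 32.2% of all genes past adjusted p and 19.1% past it and higher.

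The cytoplasmic ribosomal protein genes that carry a symbol, building blocks of the translation machinery, went the same way. All 9 passed adjusted p under 0.05 and were higher, from 0.72 log2 for ubi::crp-6 to 1.03 log2 for crp-10, with a median of 0.87. The called one, crp-10 (NCU00489), measured 1327, 1302 and 1204 FPKM in glutamine and 621, 663 and 589 FPKM in glutamate (SE 0.28, adjusted p = 0.0039), and fell just short of the call without glutamate library 3 (0.99 log2). Of 11 heat shock and chaperone genes 7 passed adjusted p, all higher, none called, with a median of 0.77 log2. Of 18 tricarboxylic acid cycle genes 13 passed, 12 higher and 1 lower, none called. The median of that list was 0.56 log2, and the lower gene was tca-17 at -0.94 log2. Among 8 genes of alternative respiration, ndi-1 (NCU00153), an alternative internal NADH dehydrogenase, was called, at 25.9 ± 2.97 against 11.2 ± 1.11 FPKM and 1.14 ± 0.22 log2 (adjusted p = 6.2e-05).

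Several large housekeeping lists showed no called gene. Over all genes tested 4.52% were called and 32.2% passed adjusted p. At that share of called genes, a list of this size without one is not read as a result. None of 30 proteasome genes passed adjusted p. Of these, 26 had a positive difference, beside 54.7% of all genes, and the median was 0.17 log2. In the fit of the 6 libraries alone 8 of the proteasome genes passed, all higher. None of 14 vacuolar ATPase genes passed, with a median of 0.04. In respiratory complex I 3 of 29 passed, all higher, with a median of 0.02. Glycolysis had 1 of 12 past adjusted p, the peroxins 2 of 20 and the histones 1 of 9, all higher and none called. The fit of the 6 libraries alone took glycolysis to 4, all higher, and the peroxins to 5 higher and 1 lower.

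**Figure D3:**
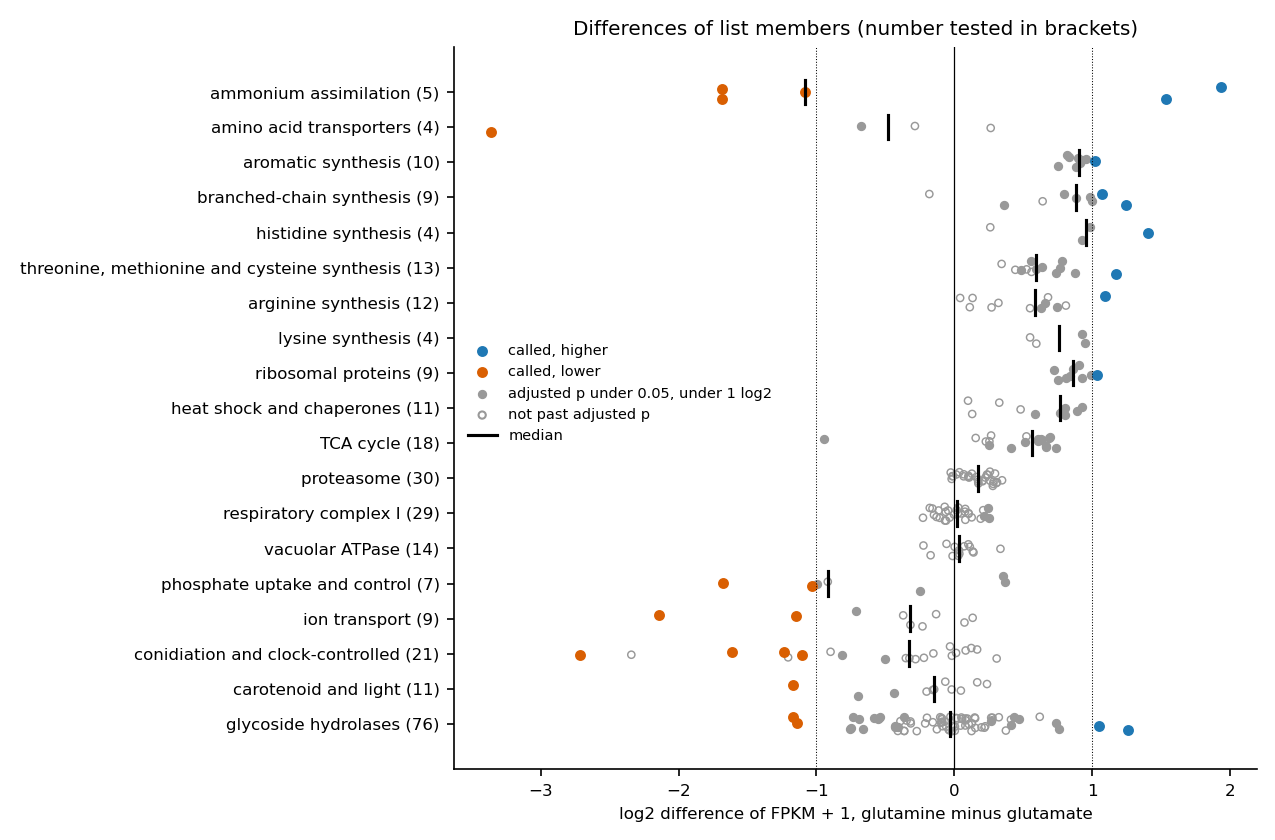
Log2 difference of FPKM + 1 (x axis, glutamine minus glutamate) of each tested member of 19 gene lists; a black bar marks the list's median and dotted lines mark the size for a call. The synthesis, ribosomal, chaperone and tricarboxylic acid cycle lists lie mostly right of 0. The proteasome list also lies mostly right of 0, by less (median 0.17 log2), and the complex I and vacuolar ATPase lists lie around it. The called phosphate, ion transport and conidiation members lie left of 0.

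The called genes of phosphate and ion transport were all lower in glutamine. The phosphate permease gene pho-4 (NCU09564) measured 13.6, 13.4 and 16.1 FPKM in glutamine and 48.0, 49.3 and 46.7 FPKM in glutamate, and it fell by 1.68 on the log2 scale (SE 0.37, adjusted p = 0.00036). The alkaline phosphatase gene pho-2 (NCU01376) was lower by 1.04 log2 with low levels, 3.07 ± 0.477 against 7.32 ± 0.713 FPKM (adjusted p = 6.0e-05), and its call was lost without glutamine library 1 (-0.93) or without glutamate library 2 (-0.97). The median of the phosphate list was -0.92 log2, and of its 7 genes 2 were called, both lower, beside 3.12% of all genes. Adjusted p was passed by 6 of the 7, 4 lower and 2 higher, beside 13.1% and 19.1% of all genes. The 2 higher ones were the entry that merges nuc-1, the activator of phosphate acquisition, with NCU09314, at 0.35 log2, and preg, whose product holds that activator back, at 0.37.

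The gene ph7 (NCU08147, supercontig 12.7, 3531915 to 3536215), which encodes a P-type cation ATPase, measured 17.4, 15.9 and 15.8 FPKM in glutamine and 74.0, 73.5 and 79.2 FPKM in glutamate. It fell by 2.14 on the log2 scale (SE 0.22, adjusted p = 1.6e-11), with replicates that were close in both media. The calcium ATPase gene nca-3 (NCU05154) was called lower at low levels, 1.97 ± 0.651 against 5.52 ± 0.686 FPKM (-1.15 ± 0.27 log2, adjusted p = 0.0007). The sodium ATPase gene ena-1 was at -0.72 log2 with adjusted p under 0.05. The plasma membrane proton pump gene pma-1, at 0.07 log2, did not pass. Of 9 ion transport genes 2 were called and 3 passed adjusted p, all lower. Beside this, 3.12% of all genes were called lower and 13.1% passed adjusted p lower, or 32.2% in either direction.

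Genes linked to conidiation and clock control were lower where they were called. Of 21 tested, 4 were called and 6 passed adjusted p under 0.05, all lower, with a median of -0.33 log2. Over all genes tested, 3.12% were called lower and 13.1% passed adjusted p lower, with 32.2% past it in either direction. The gene fl (NCU08726), a transcription factor required for conidiation, measured 9.79, 10.4 and 10.9 FPKM in glutamine and 26.6, 24.3 and 26.2 FPKM in glutamate, and it fell by 1.23 on the log2 scale (SE 0.21, adjusted p = 4.3e-06). The clock-controlled and glucose-repressible gene ccg-1 (NCU03753) was at 505, 959 and 573 FPKM against 1834, 2245 and 1919 FPKM (-1.61 ± 0.38 log2, adjusted p = 0.00079). The clock-controlled gene ccg-9 (NCU09559) was lower by 1.10 log2 at 1.61 ± 0.131 against 4.61 ± 0.374 FPKM (adjusted p = 0.012).

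The clock-controlled gene ccg-13 (NCU08907) rested on single libraries. It measured 11.2, 169 and 101 FPKM in glutamine and 286, 480 and 434 FPKM in glutamate (-2.72 ± 0.91 log2, adjusted p = 0.016). Without glutamine library 1 the difference was -1.57 log2 (adjusted p = 0.25), and without glutamate library 2 it was -2.57 log2 (adjusted p = 0.054). A fit of the 6 libraries alone left it at an adjusted p of 0.057. Glutamine library 1 had by far the lowest level of the 6.

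Markers of conidia, the asexual spores, were checked because the cultures were labelled as mycelium. None of the 5 was called. The hydrophobin gene eas measured 13.7, 5.65 and 6.38 FPKM in glutamine and 33.2, 44.0 and 60.3 FPKM in glutamate (adjusted p = 0.065). The marker con-8 measured 1.85, 4.81 and 3.44 FPKM against 8.46, 8.34 and 9.19 FPKM (adjusted p = 0.093). The means of con-6, con-10 and con-13 were 1.54, 1.27 and 0.309 FPKM in glutamine and 2.19, 3.49 and 0.301 FPKM in glutamate. These markers were low in both media, and 4 of the 5 lay wholly lower in glutamine, as did 25% of all genes tested. The called fl and ccg genes fell on the same side. The markers' part in those results was not tested, and in bulk RNA fewer cells of a type and less RNA per cell cannot be told apart.

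In the carotenoid and light list 1 of 11 genes was called and 3 passed adjusted p, all lower. Among all genes 3.12% were called lower and 13.1% passed adjusted p lower, or 32.2% in either direction. The called gene was al-1 (NCU00552, phytoene desaturase), at 30.0 ± 2.49 against 68.8 ± 5.64 FPKM (-1.17 ± 0.28 log2, adjusted p = 0.0011). The others were al-2 at -0.70 log2 and the photoreceptor gene vvd at -0.44 log2.

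Antioxidant genes moved in both directions. Among 11 catalase, superoxide dismutase and glutathione transferase genes, 4 were higher and 2 lower at adjusted p under 0.05. The shares of all genes were 19.1% and 13.1%. The catalase-peroxidase gene cat-2 (NCU05770) measured 5.05, 4.42 and 5.62 FPKM in glutamine and 26.9, 24.8 and 25.6 FPKM in glutamate and fell by 2.15 on the log2 scale (SE 0.40, adjusted p = 3.0e-05). The gene gst-4 (NCU10521) measured 21.9, 22.7 and 19.96 FPKM in glutamine and 4.35, 5.27 and 4.49 FPKM in glutamate and rose by 1.98 ± 0.42 log2 (adjusted p = 0.0002).

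Glycoside hydrolases, enzymes that split bonds between sugars, were called about as often as all genes. Of 76 tested, 2 were called higher and 2 lower, beside 1.4% and 3.12% of all genes, 8 and 15 passed adjusted p in those directions, and the median was -0.03 log2. The higher ones were gh18-6 (NCU05317), of the chitinase family GH18, at 8.43 ± 1.79 against 2.90 ± 0.156 FPKM (1.26 ± 0.14 log2), and gh61-2 (NCU07760) at 18.3 ± 0.926 against 8.30 ± 0.725 FPKM (1.05 ± 0.20 log2). The call of gh61-2 was lost without glutamate library 1 (0.99 log2). The lower ones were gh16-1 (NCU01353) at 149 ± 10.8 against 337 ± 5.61 FPKM (-1.17 ± 0.11 log2) and gh18-5 (NCU04554), again of family GH18, at 25.4 ± 1.17 against 57.2 ± 2.14 FPKM (-1.14 ± 0.26 log2).

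Outside these lists, the called genes with a symbol and the largest rises included a copper transporter. The gene tcu-1 (NCU00830) was at 14.2, 60.8 and 40.1 FPKM in glutamine and at 5.47, 5.73 and 6.04 FPKM in glutamate (2.32 ± 0.45 log2, adjusted p = 5.7e-05), with the lowest glutamine value again in library 1. The gene app (NCU04533), named for an abundant perithecial protein and the 1 gene called of 7 on the mating list, was at 8.13, 7.70 and 5.81 FPKM against 1.07, 0.481 and 1.41 FPKM (2.06 ± 0.45 log2, adjusted p = 0.00028). The gene oxa-2 (NCU06778), of the family of mitochondrial membrane insertases, stood at 10.1 ± 0.965 against 2.53 ± 0.899 FPKM, a rise of 1.68 ± 0.26 log2 (adjusted p = 8.9e-07). The kinase gene stk-52 (NCU08767) rose by 1.35 ± 0.23 log2 and ncw-1 (NCU05137), which encodes a non-anchored cell wall protein, by 1.26 ± 0.26 log2. On the lower side, rib-3 (NCU01449) fell by 1.81 on the log2 scale (SE 0.36), at 16.6 ± 3.61 against 60.1 ± 0.783 FPKM. The annexin gene anx14 (NCU04421) fell by 1.65 on the log2 scale (SE 0.21), at 20.4 ± 2.28 against 66.3 ± 8.23 FPKM.

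The largest differences of all were in genes without a symbol, for which the sources used here give no role. NCU04697 (supercontig 12.6, 421150 to 422696) measured 101, 142 and 113 FPKM in glutamine and 3.34, 4.96 and 3.13 FPKM in glutamate. It rose by 4.64 ± 0.39 log2 (adjusted p = 5.0e-15), a mean 31.1-fold higher. NCU06911 measured 239, 283 and 267 FPKM against 38.0, 42.7 and 40.5 FPKM and rose by 2.67 ± 0.41 log2 (adjusted p = 9.4e-07). NCU05319 rose by 2.04 ± 0.27 log2 and NCU00829, which lies next to tcu-1, by 2.14 ± 0.35 log2. Like tcu-1, NCU00829 was lowest in glutamine library 1, at 12.7 FPKM against 35.02 and 26.1 in the others.

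The largest falls were as deep. NCU07129 (supercontig 12.6, 50640 to 54264) measured 2.89, 3.04 and 3.62 FPKM in glutamine and 98.6, 107 and 109 FPKM in glutamate, a mean 32.9-fold lower, and fell by 4.66 on the log2 scale (SE 0.51, adjusted p = 8.6e-11). NCU04435 measured 3.73, 2.29 and 2.85 FPKM against 49.7, 61.8 and 59.8 FPKM and fell by 3.89 on the log2 scale (SE 0.26, adjusted p = 7.7e-19). The other 3 of the deepest 5, NCU09909 (-4.59 log2), NCU09904 (-4.09) and NCU09906 (-3.85), lie close together on supercontig 12.1.

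Position was therefore examined for the whole called set, after these values had been seen, as a description with no test. In the order of the genes tested along each supercontig, 6 runs of at least 3 neighbouring called genes were found, and in all 6 every gene was lower in glutamine. They hold 23 of the 267 genes called lower. No run of 3 was found among the 120 called higher, of which 10 had a neighbour called in the same direction, beside 51 of the 267 called lower. The called genes of the 2 directions differ in number, and no chance level was computed.

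The first run lies near the start of supercontig 12.1, at 17441 to 52949, and holds NCU09904, NCU09906, NCU09909 and NCU09910. NCU09909 measured 4.26, 2.71 and 4.38 FPKM in glutamine and 118, 114 and 107 FPKM in glutamate. The last member, NCU09910, was lower by only 1.25 log2, and the next gene, NCU09911, was higher in glutamine by 0.94 log2. The second run surrounds pmg at 426968 to 443780 of supercontig 12.2. There NCU10152 measured 1.60, 4.24 and 2.52 FPKM in glutamine and 42.3, 44.7 and 39.8 FPKM in glutamate (-3.57 ± 0.23 log2). The 3 entries on the other side of pmg differed less, between -1.12 and -1.25 log2. Among these NCU16502 and the merged entry of NCU03507 and NCU16503 overlap, so that their reads cannot be told apart with certainty, since strand is not given in the sources used here.

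The third run, at 5928092 to 5945207 of supercontig 12.4, holds NCU10070, NCU16905, NCU10040, NCU10039 and NCU10038. NCU10040 was by far the most abundant of them, at 40.1, 73.3 and 79.0 FPKM in glutamine and 831, 720 and 722 FPKM in glutamate (-3.60 ± 0.43 log2). Its neighbours did not exceed 22.4 FPKM in any of the 6 libraries. The fourth run, at 2801834 to 2815486 of supercontig 12.5, holds NCU01063, the merged entry of NCU01064 and NCU01065, and lao. The merged entry fell more than lao itself, from 510 ± 14.4 FPKM in glutamate to 40.0 ± 3.00 FPKM in glutamine (-3.64 ± 0.27 log2). The last 2 runs lie on supercontig 12.7. At 3531915 to 3545904 ph7 is followed by NCU08148, which measured 59.8, 62.8 and 66.3 FPKM in glutamine and 347, 401 and 417 FPKM in glutamate (-2.60 ± 0.26 log2), and by NCU08149 (-1.16 log2). At 3956776 to 3972158 NCU05828, NCU05829 and NCU05830 stood at -2.001, -1.495 and -1.61 log2.

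**Figure D4:**
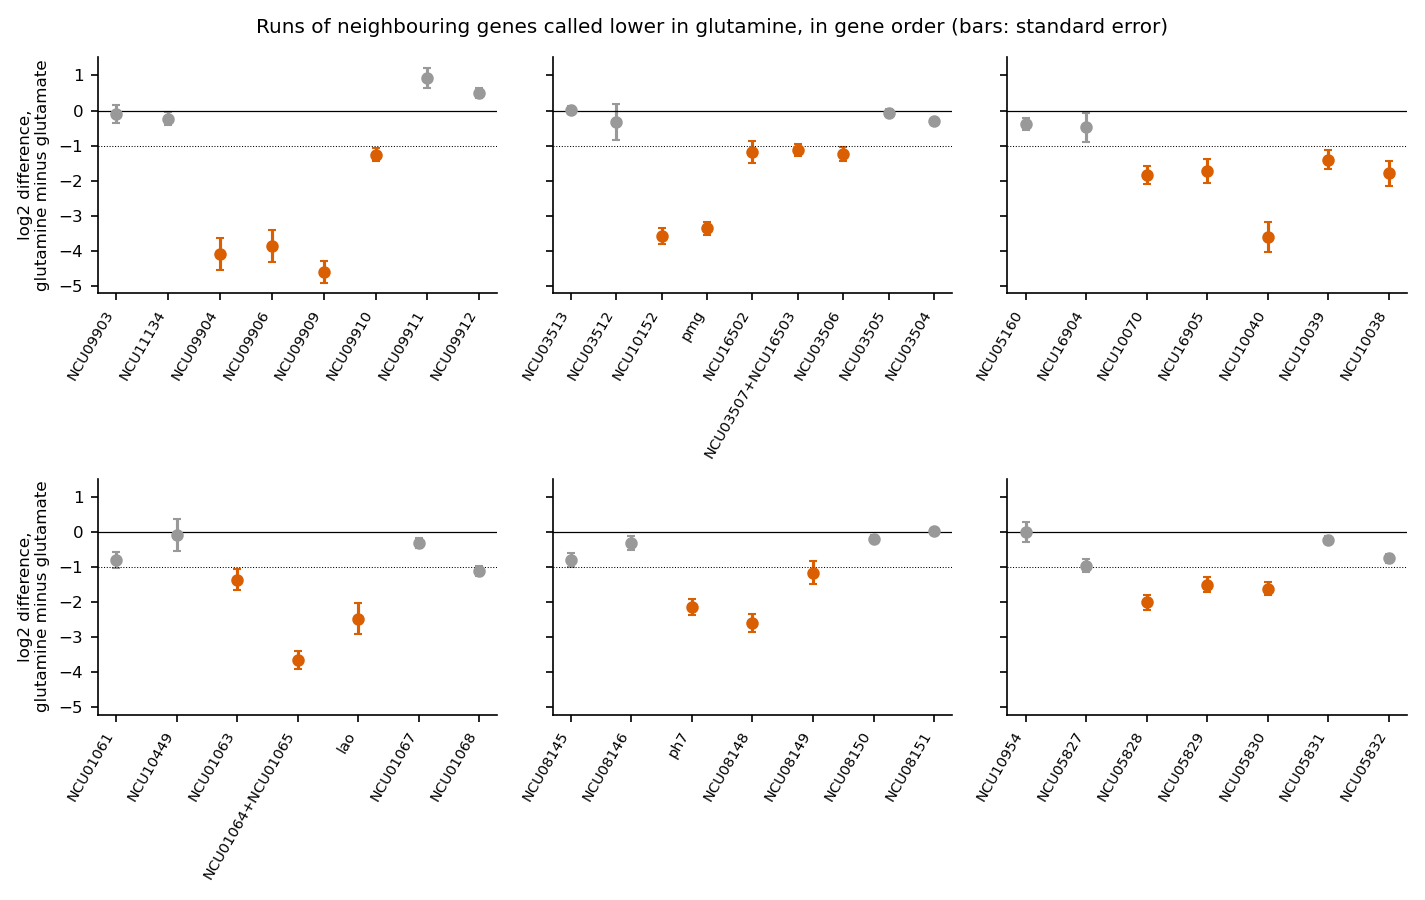
Log2 difference (y axis, glutamine minus glutamate, with standard errors) of the genes in the 6 runs of neighbouring genes called lower in glutamine (orange) and of up to 2 tested genes on each side (grey), in gene order and not to scale. The grey genes shown lie near or above the dotted line of the call, and none was tested beyond the right edge of the third run; NCU01068, in grey, was also lower by over 1 log2 but is separated from its run by a gene that was not called.

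The levels in all 14 wild type media show where the 2 amino acids lie in the study, again as a description. Distances between media were taken over the 5280 genes tested with a mean of at least 10 FPKM over the 86 libraries. By group means of these genes, glutamine and full medium were the second closest of 91 pairs of media, at 0.345 log2 (root mean square difference). Glutamate was closest to alanine, at 0.519 log2, and glutamine and glutamate came sixth at 0.569. Full medium lay nearer to glutamine than to glutamate for 330 of the 387 called genes, which is 85.3%, and for 69.5% of all genes tested.

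Among the media the am mean of 1016 FPKM in glutamine was below full medium (1463 ± 146) and arginine (3424 ± 277), and the 342 FPKM in glutamate was close to proline (360.5 ± 18.1) and isoleucine (306 ± 39.5). For en(am)-2, glutamate at 33.8 FPKM was the lowest of the media that contain both sucrose and a nitrogen source, with alanine next at 64.8 ± 5.48. The gln-1 level in glutamate, 1280 FPKM, was near that in alanine (1398 ± 59.8) and below glycine (4139 ± 156). The gln-2 level in glutamine, 214 FPKM, was the lowest of the media with sucrose, below full medium at 349 ± 33.8, and glutamate at 683 FPKM lay well below proline at 2435 ± 80.0. For pmg, glutamate at 1173 FPKM and alanine at 1257 ± 5.33 were the highest means, and glutamine at 114 FPKM lay between ammonium at 94.99 ± 18.3 and the no-carbon medium at 141 ± 21.9. NCU04697 at 118 FPKM in glutamine was above every other medium, of which full medium was next at 24.6 ± 7.89 FPKM.

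**Figure D5:**
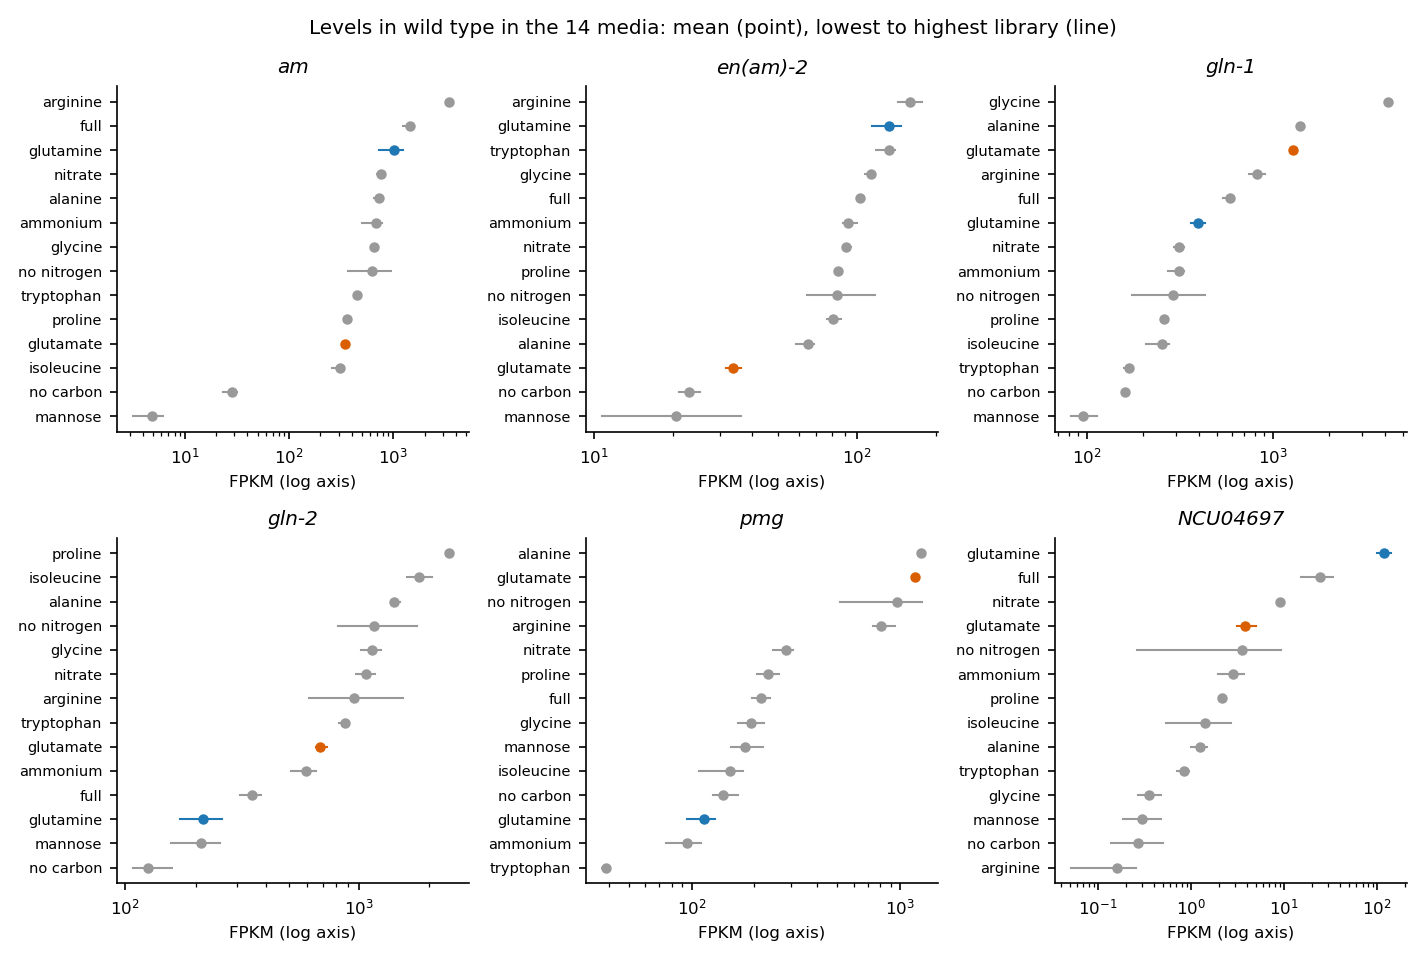
FPKM on a log axis of 6 genes in wild type in the 14 media, sorted by mean in each panel, with the mean as a point and a line from the lowest to the highest library. For pmg, glutamine (blue, 114 FPKM) lies above ammonium and tryptophan and glutamate (orange, 1173 FPKM) just below alanine, and NCU04697 is highest in glutamine.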

How the data were processed

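No source used here gives the strand or the read length. HISAT2 2.1.0, Cufflinks 2.2.1 and Cuffnorm 2.2.1 are named in the submitters' processing notes. The authors deposited FPKM per library and a joint FPKM table of 86 libraries, which was analysed here, and counts were not used. Joint columns were placed by group name, since their numbers differed from the label numbers for 5 of the 6 libraries. Relative to per-sample values the joint scaling moved the glutamine libraries by 0.042 to 0.0799 log2 and the glutamate libraries by -0.1361 to -0.1143 log2.

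limma 3.58.1 (R 4.3.3) was fitted to log2(FPKM + 1) with 1 mean for each of the 27 groups and a trended prior, on the 8558 genes with at least 1 FPKM in at least 3 of the 86 libraries, with Benjamini-Hochberg adjustment over all of them. Folds are on the log2(FPKM + 1) scale unless given as a ratio of mean FPKM, and this scale understates low genes. The fit was tested on simulated data. Depth was estimated from the upper confidence bounds deposited with the per-sample FPKM. No pair of libraries was identical. The p-values set a difference against the spread between libraries of a group. That spread is pooled over all 27 groups, other media and mutants included, and is not that of the 6 libraries alone. Symbols are from RefSeq assembly NC12. Loci are from the deposited per-sample files, and they equal those of that assembly for 9750 of 9757 identifiers.

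Named genes are a nitrogen panel, up to 4 called members of each list by size of difference, and, among called genes with at least 10 FPKM in the higher group and no overlap, the extreme 10 in each direction that have a symbol and the extreme 5 in each direction of any identifier. Other genes on a list are named to show its range and direction, and genes in neighbouring runs were chosen after their values were seen. The comparison and the 52 lists, of which 45 had a gene tested, were chosen with earlier results of these data known. Alternatives changed the pseudocount, filter, scaling, table, fit, replicate block and libraries.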

Additional observations from a re-analysis of the deposited data

Results flagged for a closer look

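The 5 full medium libraries that place the levels were checked by Dixon's rule, for the genes of the nitrogen panel only. For each of a pair of these genes 1 library stood apart. Its gap to its nearest neighbour exceeded the Dixon limit for 5 samples. The gap was 0.714 of the group's range for gln-1 and 0.770 for cpc-1. Chance alone marks about 1 in 20 groups, so that some marks can arise where a whole panel is checked. The rule was not applied to groups of 3, and so to neither amino acid medium.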

How the results depend on the processing

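Of 57 named genes, 49 kept their side of the call in every alternative that was run and 8 changed side in at least 1 (833 of 852 pairs of gene and alternative unchanged). None reversed its direction where it was called in either of the fits compared. Changes of direction in genes called in neither were not counted. For example, nit-6 was at -0.06 log2 in the main fit and at 0.07 without glutamine library 2. The number of called genes lay between 363 (filter at 10 FPKM) and 402 under the other filters, median-ratio scaling, per-sample values and fits of the 6 libraries. With a pseudocount of 0.1 it was 572, with 402 lower. With adjusted p alone it was 2752, of which 1632 were higher and 1120 lower. Leaving out 1 library at a time gave 367 to 471 called genes, 110 to 176 higher and 244 to 295 lower, the most without glutamine library 2. The lowest leave-one-out share of called genes that were higher was 30.0% and the highest 37.4%, beside 31.0% in the full comparison. No pairing of the samples by label number was seen. Correlations of same-numbered deviations were -0.101, 0.054 and -0.251, and the highest between different numbers was 0.268. The deviations are from means of 3 libraries, so these values cannot exclude a pairing. With the replicate block, on per-sample values of the 6 libraries, 399 genes were called (117 higher, 282 lower) against 402 (118 and 284) without it, and of the named genes ccg-13 was not called in either (adjusted p = 0.079 and 0.056). Counts past adjusted p alone, without a size, moved more: 1084 to 1449 higher and 829 to 1002 lower with 1 library left out, and 2340 and 1660 in the fit of the 6 libraries. Near 1 FPKM the pseudocount sets the size, as for nit-3, at -0.54 log2 with 1 and -1.03 with 0.1.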

Other observations

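The gene app, called higher in glutamine at 7.21 ± 1.23 FPKM, varied far more with carbon supply than between the amino acids. Its mean was 8305 ± 2260 FPKM in wild type without carbon and 3292 ± 1460 FPKM on mannose, and 25.8 ± 10.4 FPKM in full medium. The gene ccg-1 had a like range, from 514 ± 39.8 FPKM on ammonium to 75040 ± 32200 FPKM on mannose, with glutamine at 679 ± 245 and glutamate at 1999 ± 217 FPKM. The gene lao, 5.63-fold lower in glutamine than in glutamate, was at 5205 ± 214 FPKM in glycine, well above both.

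The gene his-6, at 177 ± 42.2 FPKM in glutamine and 64.6 ± 4.23 in glutamate, was at 916 ± 56.8 FPKM in glycine and 503 ± 127 FPKM in arginine. The level of cat-2 in glutamine, 5.03 ± 0.603 FPKM, was the lowest mean of the 14 media, with full medium next at 5.62 ± 0.886 FPKM.

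Among the lists not described in the comparison, 4 of 9 cell wall genes passed adjusted p under 0.05, with gel-4 (-0.71 log2), gel-1 (-0.53) and chs-1 (-0.34) lower, chs-6 (0.38) higher and none called. Over all genes tested 32.2% passed in either direction. In secondary metabolism 1 of 6 passed, pks-4 at -0.65 log2. In sulfur uptake and control 1 of 5 passed and in the glyoxylate list 2 of 7, all higher and none called. Among the carbon regulators 1 of 7 and among the clock genes 1 of 6 passed, each higher. None of the 7 quinate genes, 5 lipid synthesis genes or 3 sugar transporter genes passed, and neither did the 1 gene of the iron list.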
